A study of Mus musculus with 3 samples.

Results

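Broad stretches of histone H3 acetylated at lysine 27 (H3K27ac) that lie at 1 protein-coding gene each were examined in double-negative thymocytes. The overlapping peaks of the 2 replicates were merged on chromosomes 1 to 19 and X, and a merged region was kept where it held a peak of each replicate. A broad region was 2000 bp wide or more, lay within 1 kb of an annotated end of exactly 1 protein-coding gene, and lay within 1 kb of no long noncoding RNA (lncRNA) gene end. Of 17403 merged regions, 4192 were shared by the replicates, and 1896 of these lay at a single coding gene. Among those 1896, 215 (11.3%) were broad and the other 1681 were narrower regions of the same kind. The 215 broad regions lay at 215 different genes, and the narrower ones at 1675 genes, with 1 gene holding both. The width and position of the peaks chose the regions, so widths, folds and q-values of the same peaks are given below as a description, with no test.

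The cells were wild-type thymocytes of C57BL/6J mice aged 5 to 7 weeks, sorted from thymus as CD4-CD8- double-negative cells (CD25+CD44-/+) and used at once, with no treatment. Chromatin was fixed with 1% formaldehyde for 10 minutes, captured with an antibody against histone H3, joined to adapters and then precipitated with the H3K27ac antibody. The labels give 2 H3K27ac samples and 1 input sample, which was not analysed here. The labels do not say whether the replicates came from separate animals, whether animals were pooled, or how pure the sort was, so the spread between them may be technical.

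H3K27ac is laid down mainly by the acetyltransferases p300 and CBP and marks active promoters and enhancers. At an active gene it usually flanks the start site and extends some way into the gene. Wide acetylated domains are known to include many genes that set a cell's identity. Double-negative thymocytes are the earliest T cell precursors in the thymus. They commit to the T lineage under Notch signalling and rearrange Tcrb, which encodes the receptor's beta chain.

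The replicate lists held 12228 and 9429 peaks on these chromosomes, with median widths of 618 bp and 562 bp and median folds of 2.18 and 2.31. A q-value of at most 0.05 was reached by 27.3% of the peaks of replicate 1 and 41.1% of those of replicate 2. Of 14 marker genes of double-negative thymocytes, 7 had a shared region within 1 kb of a gene end (Dntt, Cd3e, Cd3g, Cd3d, Bcl11b, Tcf7 and Kit), and 7 had none (Ptcra, Rag1, Rag2, Il2ra, Notch1, Gata3 and Il7r). Of 91 genes of B cells, myeloid cells, NK and innate lymphoid cells, erythroid cells and megakaryocytes, thymic stroma and unrelated tissues, 2 had a shared region (Tfrc and Ccl25), and 0 had a broad one. Later thymocyte genes were not among these 91, and 2 of 15 had a broad region. Of all coding genes, 0.994% had a broad region and 7.74% a narrower one at a single coding gene. The share of all coding genes with any shared region is not given here. The counts of 7 of 14 and 2 of 91 are therefore not set against such a share. Among the broad regions, the relation of fold to q was unlike the rest throughout chromosome 9 and at some regions of chromosomes 6, 14 and 17. A like relation was seen at Ogfr on chromosome 2, with folds of 1.31 and 1.35 and −log10 q of 2.93 and 9.81. Ogfr was named after its values were seen. Values are given with and without chromosomes 6, 9, 14 and 17 where this matters.

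Promoter sequences are shown because base composition varied widely among the broad regions. RefSeq promoters (GRCm38.p6, 250 bases before to 50 after a gene start) were listed for 168 of the 215 genes. They are shown for the 3 widest regions whose promoter lay whole under peaks of both replicates. They were also sought for the widest such region in each of 5 gene lists. Rhoh and Tcf7 were also those of the T cell receptor and T lineage lists, and E2f3 that of the cell cycle list. No region of the cytokine and Notch list or of the chromatin list had such a promoter. Capitals mark matches to any of 10 motifs searched on both strands, all of them named further on. Each sequence is on its gene's strand, 5′ to 3′. The promoter of Rhoh (chr5:65863334-65863633, plus strand) had 9 CpG, an observed over expected CpG ratio of 0.478 and none of the motifs. That of Ptma (chr1:86526307-86526606, plus strand) had 28 CpG and a ratio of 0.821. A promoter of Tcf7 (chr11:52282546-52282845, minus strand) had 17 CpG and a ratio of 0.548, and a promoter of E2f3 (chr13:29984342-29984641, minus strand), shown for the cell cycle list, had 37 CpG and a ratio of 0.797.
Rhoh: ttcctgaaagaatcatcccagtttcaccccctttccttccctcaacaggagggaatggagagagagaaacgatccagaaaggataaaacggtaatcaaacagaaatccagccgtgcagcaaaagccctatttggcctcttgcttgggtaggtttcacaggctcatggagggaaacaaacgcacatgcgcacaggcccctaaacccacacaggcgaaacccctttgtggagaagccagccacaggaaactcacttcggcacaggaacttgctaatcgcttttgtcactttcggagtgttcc
Ptma: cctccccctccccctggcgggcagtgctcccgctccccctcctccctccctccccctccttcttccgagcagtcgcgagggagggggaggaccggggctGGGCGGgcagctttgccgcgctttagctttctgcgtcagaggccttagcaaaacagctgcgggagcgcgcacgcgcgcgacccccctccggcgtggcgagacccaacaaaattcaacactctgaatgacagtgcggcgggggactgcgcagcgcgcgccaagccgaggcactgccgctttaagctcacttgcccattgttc
Tcf7: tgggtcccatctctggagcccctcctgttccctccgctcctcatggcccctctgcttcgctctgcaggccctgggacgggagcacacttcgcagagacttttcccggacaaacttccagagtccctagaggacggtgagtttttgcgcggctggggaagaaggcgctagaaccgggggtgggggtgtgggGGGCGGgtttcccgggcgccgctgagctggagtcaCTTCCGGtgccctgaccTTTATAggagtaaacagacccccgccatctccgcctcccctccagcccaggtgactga
E2f3: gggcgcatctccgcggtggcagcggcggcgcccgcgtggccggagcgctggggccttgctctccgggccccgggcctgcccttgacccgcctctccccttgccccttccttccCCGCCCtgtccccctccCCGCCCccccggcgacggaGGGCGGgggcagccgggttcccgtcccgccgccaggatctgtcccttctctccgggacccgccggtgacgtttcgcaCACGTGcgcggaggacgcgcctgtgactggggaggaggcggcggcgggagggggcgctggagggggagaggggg

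The Tcf7 promoter held 1 GC box, 1 match to the ETS motif on the opposite strand and 1 TATA box match, also on the opposite strand. The E2f3 promoter held 3 GC boxes and 1 E-box. The Ptma promoter held 1 GC box. All of these were runs of letters, not measured binding sites.

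The broad regions had a median merged width of 2505 bp (quartiles 2182.5 and 2946.5 bp, highest 8967 bp), against 1021 bp (quartiles 714 and 1377 bp) for the narrower ones. Peaks of replicate 1 covered a median of 2116 bp of a broad region and those of replicate 2 a median of 1878 bp. Peaks of both replicates covered a median of 1357 bp, or 56.0% of the merged width. In the narrower regions that share was 54.7%, so the replicates overlapped in like proportion in the 2 classes. In 203 of 215 broad regions each replicate had a single peak.

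How far the width rested on 1 replicate differed among the genes. In 48 broad regions each replicate alone covered 2000 bp or more. In 89 this was so of replicate 1 only, in 41 of replicate 2 only, and in 37 neither replicate reached 2000 bp by itself. Peaks of both replicates overlapped over 2000 bp or more in 37 regions (17.2%). The longest such overlaps were at Rhoh (4492 bp), Ptma (4152 bp), Sox4 (3689 bp), Zc3h4 (3247 bp) and Desi1 (3081 bp), named after their values were seen.

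**Figure D1:**
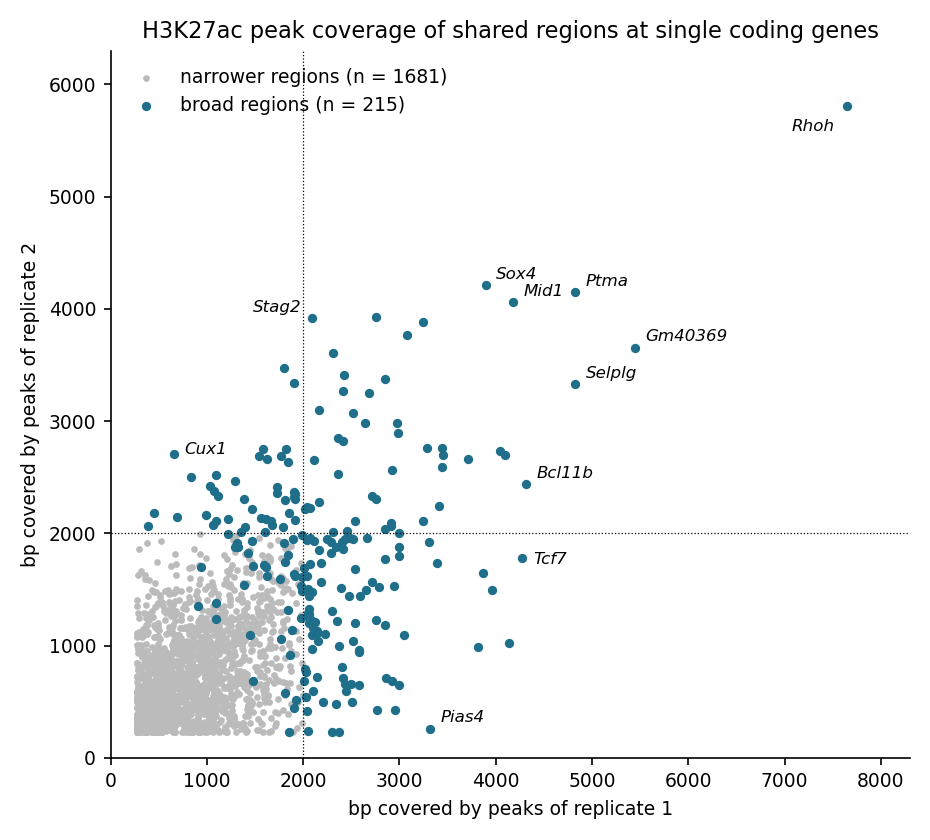
Length covered by H3K27ac peaks of replicate 1 (x axis, bp) and replicate 2 (y axis, bp) in each shared region at a single coding gene, with broad regions in blue and narrower ones in grey. Dotted lines stand at 2000 bp, and 48 broad regions lie at or above 2000 bp in both replicates, while Pias4 and Cux1 owe their width to 1 replicate.

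The widest region lay at Rhoh, which encodes a blood cell GTPase needed for T cell receptor signalling. It spanned chr5:65859855-65868821 and held 2 peaks in each replicate, covering 7647 bp in replicate 1 and 5812 bp in replicate 2. The peaks of replicate 1 had folds of 2.22 and 2.51, and those of replicate 2 had folds of 2.24 and 2.59. The region reached 3729 bp before and 5237 bp past a listed gene start. Both replicates were thus wide at this gene, with folds not far above the medians of all peaks.

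Genes of the remaining widest regions had various roles. Gm40369, a predicted gene model, had 6966 bp (chr6:47653405-47660370), with folds of 2.25 and 2.65 in replicates 1 and 2. Mid1, a ubiquitin ligase gene at the boundary of the pseudoautosomal part of the X chromosome, had 5262 bp (chrX:169989443-169994704) at its 3′ end, with folds of 2.06 and 2.32. Selplg encodes PSGL-1, the selectin ligand that guides progenitors into the thymus. Its region was 5186 bp wide (chr5:113828139-113833324), with folds of 2.64 and 2.23 and −log10 q of 1.91 and 1.37. Ptma, which encodes prothymosin alpha, had 4828 bp (chr1:86524360-86529187), covered over 4828 bp and 4152 bp by replicates 1 and 2. Sox4, an HMG-box factor gene of lymphoid progenitors, had 4420 bp (chr13:28949287-28953706) over both ends of the gene, with 3897 bp and 4212 bp covered. At Ptma and Sox4 the replicates lay almost on top of each other, unlike at Stag2, the gene of a cohesin subunit. There replicate 1 covered 2095 bp and replicate 2 covered 3915 bp of 4356 bp. B3gnt2, a glycosyltransferase gene, had 4302 bp (chr11:22856328-22860629), with folds of 2.43 and 2.51.

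**Figure D2:**
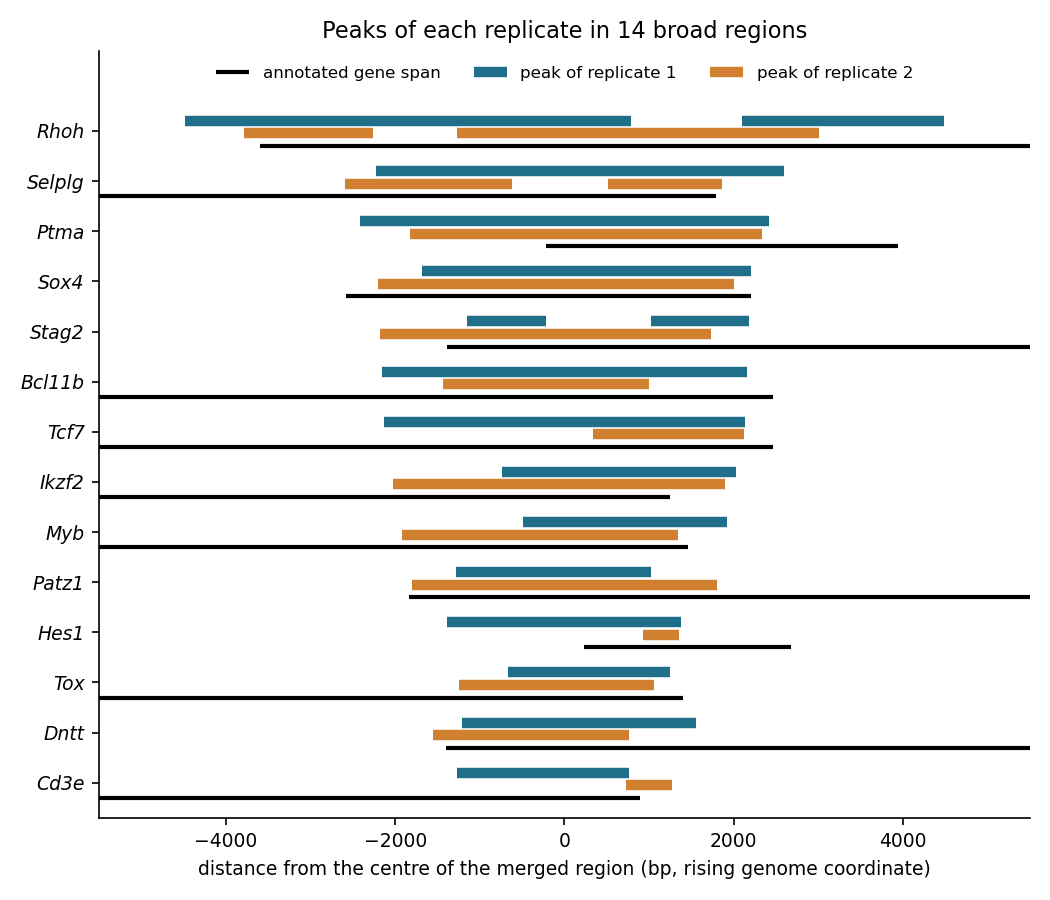
Peaks of replicate 1 (blue) and replicate 2 (orange) in 14 broad regions, against the distance from the centre of each merged region (bp), with the annotated gene span in black. Ptma, Sox4 and Dntt show long overlaps of the replicates, whereas at Cd3e the peaks meet over 32 bp and at Hes1 the replicate 2 peak covers 425 bp.

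Transcription factors of the T lineage had broad regions more often than any other of the 20 gene lists. Of 30 such genes 7 (23.3%) had a broad region, against 0.994% of all 21631 coding genes, and 3 had a narrower one, against 7.74%. Among the list's 10 regions at single coding genes, 7 were thus broad, where 11.3% of all 1896 regions were. The share exceeded 11.3% in every other list with such regions except those of ribosome and translation, respiratory and erythroid genes. It was 4 of 7 for migration and adhesion, 3 of 6 for survival and 2 of 4 for T cell receptor signalling. It was 4 of 10 for ubiquitin, 4 of 12 for chromatin and 3 of 11 for cell cycle genes. Recombination and later thymocyte genes had 2 of 2 each. No test was made of these counts, since the list and the rule were chosen with results of these data known. The count of T lineage factors was 7 without chromosomes 6, 9, 14 and 17 and 4 in replicate 2 alone. It was 3 where 2000 bp had to be covered by both replicates and 0 among peaks with q of at most 0.05.

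Bcl11b, the factor of T cell commitment, had the widest region of the list, 4316 bp at chr12:107999523-108003838. Replicate 1 covered 4316 bp with a fold of 2.47 and replicate 2 covered 2441 bp with a fold of 3.79. Their −log10 q values were 1.12 and 3.69, so the peak of replicate 2 passed a q of 0.05 and that of replicate 1 did not. Tcf7 encodes TCF-1, which acts downstream of Notch. Its region of 4277 bp (chr11:52278777-52283053) lay inside the annotated gene span and reached 39 bp before and 4237 bp past a listed start. Replicate 1 covered 4277 bp with a fold of 3.12 and replicate 2 covered 1781 bp with a fold of 2.28. At this gene replicate 1 passed a q of 0.05 (−log10 q of 2.19) and replicate 2 did not (0.917). Ikzf2 encodes Helios, of the Ikaros family. Its region of 4047 bp (chr1:69684079-69688125) was covered over 2761 bp by replicate 1 and 3926 bp by replicate 2, with folds of 2.39 and 3.74.

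The other 4 factors had low q support. Myb, a factor of proliferating progenitors, had 3847 bp with 2417 bp and 3264 bp covered and folds of 2.08 and 2.23. Patz1, a zinc finger factor gene, had 3604 bp with 2310 bp and 3604 bp covered and folds of 1.49 and 1.52. Tox, a gene needed for CD4 T cell development, had 2499 bp with 1918 bp and 2304 bp covered and folds of 2.27 and 2.15. Hes1, a Notch target, had 2767 bp, all of it covered in replicate 1 and only 425 bp in replicate 2. None of these 4 had a peak with q of at most 0.05 in either replicate. The 3 narrower regions of the list were at Satb1, Tcf12 and Tcf3. Elf1, Gabpa and Ikzf1 had shared regions that lay within 1 kb of other gene ends as well. The other 17 of the 30 genes had no shared region within 1 kb of an end.

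Lists of receptor, signalling and survival genes had lower shares than the T lineage factors, as did every other list. For comparison with this and the next lists, 0.994% of all coding genes had a broad region and 7.74% a narrower one. Of 27 genes of the T cell receptor and its proximal signalling, Rhoh and Cd3e had broad regions (7.41%), and Cd27 and Prkcq narrower ones. At Cd3e, a signalling chain of the receptor complex, the merged width of 2542 bp rested on peaks of 2031 bp and 543 bp that met over 32 bp, with folds of 1.14 and 1.20. Of 25 cytokine and Notch pathway genes, Ifngr1 and Jak3 had broad regions and 6 had narrower ones. Ifngr1, a chain of the interferon gamma receptor, had 3415 bp (chr10:19591331-19594745) with folds of 4.67 and 2.47 and passed a q of 0.05 in both replicates (−log10 q of 5.32 and 1.41). Jak3, the kinase of the common gamma chain, had 2374 bp in replicate 1 but 229 bp in replicate 2. Of 20 survival genes, 3 had narrower regions and 3 had broad ones (15.0%): Mcl1 (3564 bp), Cflar (2505 bp) and Bcl2 (2378 bp). Mcl1 and Cflar, which encode inhibitors of apoptosis, passed a q of 0.05 in both replicates, with −log10 q of 1.57 and 1.32 at Mcl1 and of 2.46 and 1.55 at Cflar. At Bcl2 only replicate 2 did, with 2.80 against 0.554.

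Migration and adhesion genes had 4 broad regions among 26 genes (15.4%) and 3 narrower ones. Beside Selplg, these were Itga4, the integrin alpha-4 gene, with 3899 bp and folds of 2.22 and 2.34, Cxcr4, the receptor of the chemokine CXCL12, with 2700 bp and folds of 2.15 and 2.39, and Wasf2, an actin regulator gene, with 2070 bp and folds of 1.91 and 2.98. Of 18 recombination and end joining genes, Dntt and Hmgb1 had broad regions and no gene had a narrower one. Dntt, which encodes terminal transferase, had 3104 bp (chr19:41029123-41032226) with 2759 bp and 2310 bp covered and folds of 2.51 and 2.21. Its listed promoter had a CpG ratio of 0.149, among the lower values of the broad regions. Of 15 later thymocyte genes, Aqp11 (3748 bp) and Klf3 (2685 bp) had broad regions, and the other 13, among them Cd4 and Cd8a, had no shared region within 1 kb of an end.

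In the lists of ribosome and translation, splicing and respiratory genes, regions at single coding genes were more often narrower than broad. The same held for the cytokine and Notch, chromatin, cell cycle, ubiquitin, immediate early and erythroid lists. Of 36 genes of the cytosolic ribosome and translation, 20 had a region at a single coding gene, and 2 of the 20 were broad (10.0%), near the 11.3% of all such regions. They were Rpl13a, with 2899 bp and folds of 2.11 and 2.19, and Rps14, with 2694 bp and folds of 2.29 and 1.82. The median width over those 20 genes was 1159 bp, against 3185.5 bp over the 10 regions of T lineage factors. Among 33 splicing genes 4 of 16 regions at single coding genes were broad, a share above the 11.3% of all such regions, at Hnrnpl (3019 bp), Hnrnpu (2542 bp), Srsf10 (2378 bp) and Tra2b (2269 bp). At Hnrnpl the replicates covered 2975 bp and 2983 bp. None of the 5 regions of 22 respiratory genes was broad, and their median width was 681 bp. The lists do not hold every such gene: Rps12, a ribosomal protein gene (2255 bp), and Atp5j2, an ATP synthase subunit gene (2262 bp), had broad regions outside them, named after their values were seen. Counts this small shift with the threshold: at 1500 bp, 5 ribosome and translation genes and 8 splicing genes had broad regions, and at 3000 bp, 0 and 1.

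Genes of chromatin and the cell cycle had both kinds of region. Of 40 chromatin regulators, 4 had broad regions (10.0%) and 8 narrower ones. Beside Stag2 these were Setd2, the gene of a histone methyltransferase for H3K36 (2691 bp, folds of 1.34 and 1.08), Smarca4, the gene of the ATPase BRG1 (2576 bp, folds of 1.38 and 1.12), and Kat2b, an acetyltransferase gene (2091 bp, folds of 1.97 and 2.45). Without chromosomes 6, 9, 14 and 17 only 1 of the 4 was left, since Setd2 and Smarca4 lie on chromosome 9 and Kat2b on chromosome 17. The count was 1 in replicate 2 alone as well. Of 32 cell cycle genes 3 had broad regions (9.38%): Cdkn1b, an inhibitor of cyclin-dependent kinases (2504 bp, folds of 2.02 and 2.74), Mcm6, a subunit of the replicative helicase (2253 bp, folds of 2.59 and 3.01), and E2f3, a factor of S phase entry (2167 bp, folds of 3.52 and 2.64). Mcm6 passed a q of 0.05 in both replicates.

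Of 26 genes of ubiquitin and the proteasome, 6 had narrower regions and 4 had broad ones (15.4%). The widest was at the polyubiquitin gene Ubb, with 3608 bp over both gene ends. Usp9x, a deubiquitinase gene, had 2383 bp with folds of 2.61 and 2.82. Cul1, a scaffold of ubiquitin ligases, had 2043 bp and folds as unlike as 1.27 and 5.22. Fosb (2436 bp) and Klf6 (2114 bp) were the 2 broad ones among 28 immediate early and NF-kappa-B genes. All told, 41 of the 215 genes were in a list, and 5 of the 215 were predicted models.

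**Figure D3:**
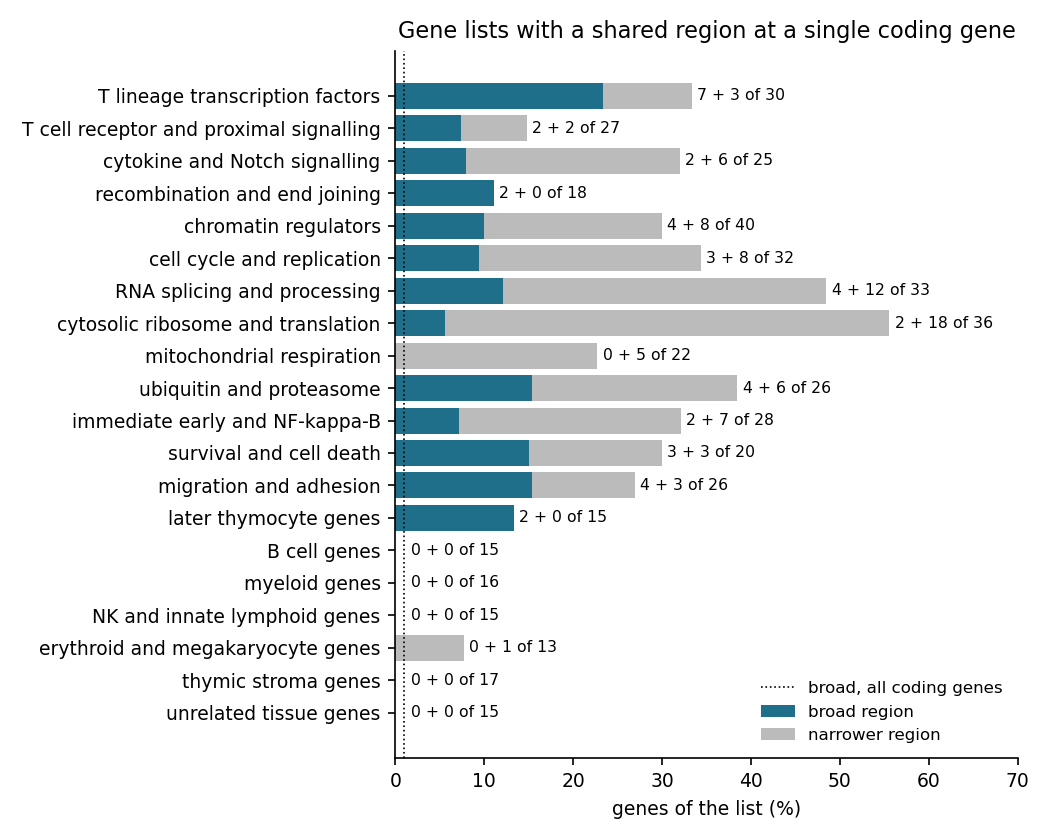
Share of each gene list (x axis, % of its genes) with a broad region (blue) or a narrower region (grey) at a single coding gene, with the counts beside each bar and the share of broad regions over all coding genes as a dotted line (0.994%). T lineage factors have 7 broad and 3 narrower regions, ribosome and translation genes 2 and 18, and later thymocyte genes 2 and 0. The lists of B, myeloid, NK and innate lymphoid, erythroid, stroma and unrelated tissue genes have no broad region.

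Broad and narrower regions had folds of like size. The median fold was 2.22 in replicate 1 and 2.34 in replicate 2, against 2.18 and 2.34 in the narrower regions. The difference of the medians was 0.039 in replicate 1 and 0.0028 in replicate 2, where the quartiles of the broad regions were 2.03 to 2.48 and 2.11 to 2.72. The sign of the difference changed under other settings, to -0.044 in replicate 1 with q of at most 0.05 and to -0.11 in replicate 2 with a width of 3000 bp or more. Across the 215 broad regions, width had a Spearman's rho of 0.105 with the fold of replicate 1 and of -0.105 with that of replicate 2. These regions share their libraries and were chosen by width, so the values are descriptions only.

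Both replicates passed a q of 0.05 in 42 broad regions (19.5%, exact 95% binomial interval 14.5% to 25.5%, for counting of regions only), against 14.4% of the narrower and 15.5% of all shared regions. Of these 42, 21 lay on 4 chromosomes. On chromosomes 6, 9, 14 and 17, 21 of 38 broad regions passed (55.3%) against 43.2% of the narrower. On the other chromosomes 21 of 177 did (11.9%), against 8.06% of the narrower. In 88 broad regions (40.9%) neither replicate passed.

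Chromosome 9 stood apart most. All 11 of its broad regions passed a q of 0.05 in both replicates, and all had folds under 2 in both. Their median folds were 1.35 and 1.25. Hspa8, which encodes a constitutive chaperone, had 4256 bp with folds of 1.473 and 1.504 and −log10 q of 14.3 and 22.6. Msl2, of a complex that acetylates histone H4, had 4165 bp with folds of 1.83 and 1.31 and −log10 q of 33.3 and 15.1. The lowest folds of all broad regions were here too, at Gm20346 (1.35 and 1.02), Setd2, Smarca4 and Cd3e, beside Gch1 on chromosome 14 (1.14 and 1.18). Folds under 2 in both replicates were found in 13 of the 38 broad regions on chromosomes 6, 9, 14 and 17 and in 9 of the 177 elsewhere. Of those 13, 11 were on chromosome 9, and the others were Gch1 and Hmga1. Both replicates passed a q of 0.05 in 7 of 13 broad regions on chromosome 6, 1 of 6 on chromosome 14 and 2 of 8 on chromosome 17. What set chromosome 9 apart was not tested.

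The broad regions with the highest folds in both replicates were few. Irf1, an interferon response factor gene, had folds of 5.07 and 5.11 over 2440 bp, covered whole by replicate 1 and over 592 bp by replicate 2. Dusp11, an RNA phosphatase gene on chromosome 6, had 5.64 and 4.36. Cep120, a centriole gene, had 3.93 and 3.33, and Clec2d, which encodes a ligand of an NK receptor, had 2.9998 and 4.236. Phf12, of a corepressor complex, had 3.74 and 2.94. These 5 passed a q of 0.05 in both replicates. A single replicate went higher at Ugcg, a glucosylceramide synthase gene, with 11.3 in replicate 2 against 2.31, and at Ing1, a chromatin reader gene, with 8.83 against 1.98, both named after their values were seen. The agreement of folds across broad regions was weak: rho was 0.249 and Pearson's r 0.160 over all 215, 0.629 and 0.401 over the 38 on chromosomes 6, 9, 14 and 17, and 0.110 and 0.0583 over the other 177.

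**Figure D4:**
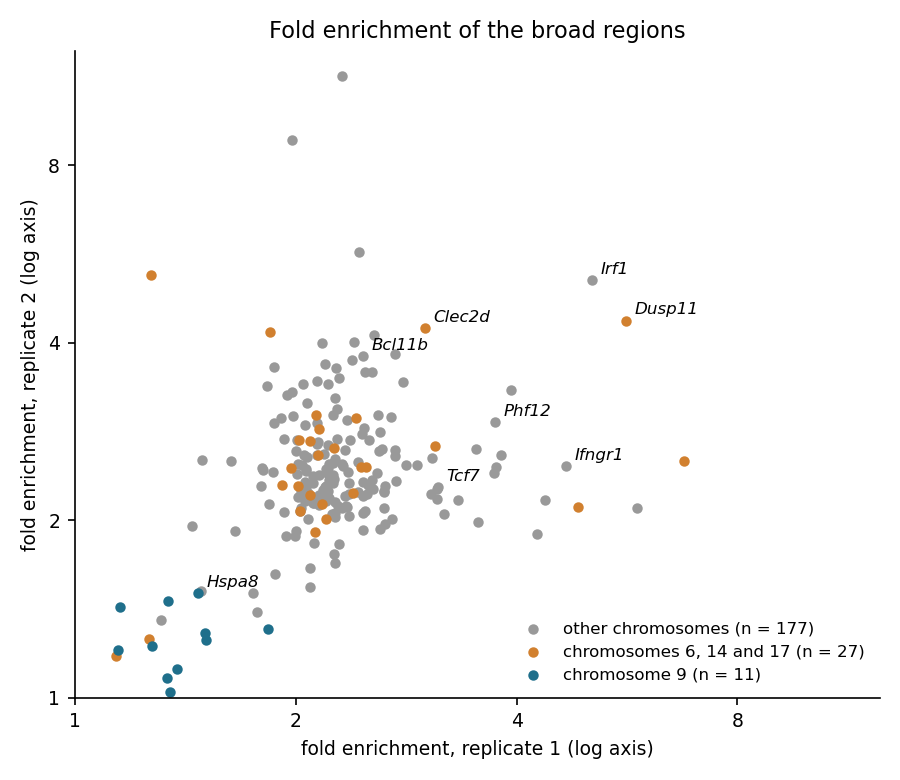
Fold enrichment of the 215 broad regions in replicate 1 (x axis) and replicate 2 (y axis), both on log axes, with chromosome 9 in blue and chromosomes 6, 14 and 17 in orange. The 11 regions of chromosome 9 all lie under 2 in both replicates, and Irf1 and Dusp11 lie above 4 in both.

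At most genes the broad region lay at the 5′ end. Of the 168 genes with a listed promoter, and so a known strand, 156 had only their 5′ end within 1 kb of the region, 10 had both ends and 2, Mid1 and Vps18, only their 3′ end. A listed start lay inside the merged region at 149 of 168 genes (88.7%) and under peaks of both replicates at 103 (61.3%), against 77.4% and 46.3% of the narrower regions. A wider region covers a nearby start more readily, so the rule itself bears on that difference. The widest regions with both gene ends in reach were those of Gm40369, Sox4, Ubb, LOC100504180 and Alyref2. In all, 11 of the 215 broad regions (5.12%) reached both ends, against 2.26% of the narrower.

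Around a listed start, most broad regions reached farther downstream than upstream. At the 103 genes with a start under peaks of both replicates, the merged region extended a median of 1442 bp downstream and 1112 bp upstream. It reached farther downstream at 67 of 103 (65.0%), and narrower regions did so at the same share, 415 of 638 (65.0%). By replicate, covered length was larger downstream at 68 of 103 in replicate 1 and at 61 of 103 in replicate 2. At 1050 bp past the start, 59.2% of the broad regions were under a peak of replicate 1 and 44.7% under one of replicate 2, against 40.8% and 31.1% at 1050 bp before it. These distances count from a listed start, which can lie inside the annotated gene. At Hnrnpl the region reached 2544 bp before and 474 bp past the listed start, with 93.4% of it inside the gene span. At E2f3 it reached 1597 bp before and 569 bp past the inner of 2 listed starts and lay whole inside the gene span.

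**Figure D5:**
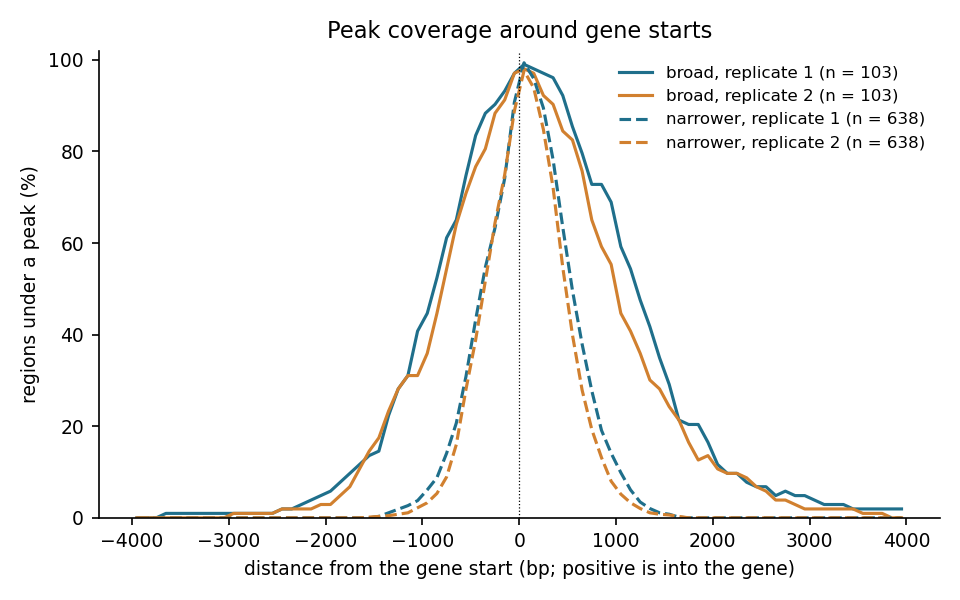
Share of regions under a peak (y axis, %) by distance from the gene start (x axis, bp, positive into the gene), for broad regions (solid, n = 103) and narrower regions (dashed, n = 638) in each replicate. In each replicate the broad curve falls more slowly downstream than upstream, and at 1050 bp downstream replicate 1 stands at 59.2% and replicate 2 at 44.7%.

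Promoter composition, which the rule did not use, was alike in the 2 classes. The median CpG ratio was 0.850 at 168 broad regions (quartiles 0.709 and 0.997) and 0.842 at 1379 narrower ones (quartiles 0.703 and 0.963), against 0.586 over the 17274 coding genes with a listed promoter. GC content had medians of 65.0% and 62.0%, against 56.3%. The difference in CpG ratio changed sign under other settings, to -0.051 with a width of 3000 bp or more and to -0.062 with 2000 bp covered by both replicates. Each ratio is that of the listed promoter nearest to the gene's 5′ end, which need not lie inside the region. These ratios ran from 0 to 1.30 at genes with broad regions. Low ones occurred at T cell genes such as Dntt (0.149), Itga4 (0.322) and Cd3e (0.333). They also occurred at Mid1 (0.140), Luc7l2 (0.175) and Mbnl1 (0.184), where no listed start lay inside the region. High ones occurred at Tcf7 (1.03) and Myb (0.952), but the inner Tcf7 promoter, shown above, had 0.548. All of these genes were named after their values were seen. No test over regions was made of these values.

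Motif matches were counted in the promoter nearest to the 5′ end of each gene. The GC box GGGCGG was found in 73.8% of broad, 69.4% of narrower and 46.9% of all promoters. CCAAT was found in 36.3%, 39.5% and 39.6%, and TATAAA in 7.74%, 7.13% and 13.4%. The ETS motif CCGGAAG was found in 14 of 168 broad promoters (8.33%), against 20.8% of narrower and 12.1% of all. The 14 were at Alyref2, Anp32b, Arhgdia, Cap1, Cdk13, Ezr, Gtf2a1, Ivns1abp, Mcl1, Stk4, Usp36, Vps18, Xrn2 and Zfp263. The cyclic AMP response element TGACGTCA was in 2.38%, 5.75% and 2.36%, and the E-box CACGTG in 10.7%, 11.4% and 8.01%. The NRF1 motif, a palindrome of 10 letters, was in 2.98%, 2.69% and 1.35%, and AAGATGGC, the YY1 motif, in 8 of 168 broad promoters (4.76%), 88 of 1374 narrower ones and 3.23% of all. TGTGGTT, the RUNX motif, was in 2.38%, 3.35% and 4.86%, and CTTTGAT, the TCF and LEF motif, in 1.19%, 2.04% and 3.32%. Thus GC box shares were alike in the 2 classes, and the ETS and cyclic AMP shares were lower in the broad than in the narrower one. The cyclic AMP share of the broad class rested on 4 of 168 promoters and was near that of all promoters. No test was made of these shares. Matches of different motifs were counted separately, also where they overlapped.

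Genes with broad regions had a wider range of spans between the quartiles than genes with narrower ones. The median span was 30610 bp (quartiles 9275 and 74121.5 bp) against 25187 bp (quartiles 11827 and 52086 bp) at narrower regions. The nearest end of another coding gene was a median of 10435 bp away, against 5323 bp. That distance was taken from either end of the gene, whereas the rule kept other gene ends from within 1 kb of the region, so the rule bears on it only in part. Close neighbours did occur among the broad genes, for example at Jak3 (0 bp), Rtn3 (13 bp) and Snw1 (14 bp), named after their values were seen. More than 1 listed start was found at 35 of 168 genes (20.8%) and at 18.6% of genes with narrower regions. A median of 72.2% of a broad region lay inside the gene span, against 81.0% of a narrower one.

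Near the threshold of 2000 bp the genes were of mixed kinds. Just inside it were Rest, a repressor of neuronal genes (2001 bp), and Pnrc2 (2005 bp). Just outside were Tagln2 (1996 bp) and Mbnl2 (1995 bp). Rest had folds of 2.06 and 2.44 and Tagln2 had folds of 1.77 and 3.52. Regions whose width came from 1 replicate included Pias4, a SUMO ligase gene (3314 bp covered in replicate 1, 261 bp in replicate 2), Jak3 and Vps18 (2295 bp and 229 bp). In the other direction they included Dguok, a mitochondrial kinase gene (387 bp and 2069 bp), Cap1, an actin regulator gene (452 bp and 2183 bp), and Cux1, a homeobox gene (653 bp and 2711 bp).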

How the data were processed

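H3K27ac was assayed by immunoprecipitation of chromatin in 2 replicates of 1 group. Bowtie2, MACS 1.4.2 and the build mm10 are named in the submitters' processing notes. The 9-column lists have the broad layout of MACS2, so which version made them is uncertain. Peak names carry 1 library index per file and the word rmdup, so each list came from 1 sample after duplicate removal. Peak cutoff and control: not given in the sources used here. For each peak, fold is a ratio deposited by the authors, and its −log10 p-value and −log10 q-value were also deposited by the authors. The score, 10 times the −log10 q, was deposited by the authors too and was not used. The files hold no read counts, so depth is unknown and peaks have no counting interval.

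Coordinates count from 1. Peaks overlapping by at least 1 bp were merged. Where a replicate had several peaks in a region, its fold is their mean weighted by width and its q that of the strongest peak. Gene ends came from a RefSeq table (GRCm38.p6, the build called mm10), and strands and promoters from RefSeq promoters of that build. No test was run, since regions are not replicates and widths chose them; an exact binomial interval covers counting of regions only. Merging and classes were tested on 500 simulated regions, and all 500 were placed as made. All 469 entries of the 20 gene lists matched. The members and lists were chosen with earlier results of these data known. Named genes are the 10 widest, the 5 of highest and lowest fold, the 3 on each side of the threshold (1 on each side is not reported here), the 3 widest of each list, the 5 widest with q of at most 0.05 in both replicates or over both gene ends, and the 3 favouring each replicate most; others are said to be named later, or are counted members of a list. Alternatives changed width, window, overlap, q, chromosomes and replicates. Python 3.11.15, numpy 2.4.6, pandas 2.3.3, scipy 1.17.1 and matplotlib 3.10.9 were used.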

Additional observations from a re-analysis of the deposited data

How the results depend on the processing

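The number of broad regions, 215, stayed within 1.5 times with gene-end windows of 500 bp (215) and 2.5 kb (205), with overlap of at least 50% of the shorter peak (198), and without chromosomes 6, 9, 14 and 17 (177). It was 518 with a width of 1500 bp or more and 48 with 3000 bp. It was 41 with peaks of q of at most 0.05 only and 37 with 2000 bp covered by both replicates. With 1 replicate left out it ranged from 88 (without replicate 1) to 153. Of 108 alternative values, 60 stayed within 1.5 times, the binomial interval or 1 SD, and 48 moved.

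With widths of 1500 bp and 3000 bp, broad regions were 27.3% and 2.53% of regions at single coding genes. With q of at most 0.05 they were 14.4%, with 2000 bp covered by both 1.95%, and with 1 replicate left out 3.20% to 4.93%. The fold difference between broad and narrower regions in replicate 1 was 0.13 at 3000 bp, -0.044 with q of at most 0.05 and 0.091 with 2000 bp covered by both. In replicate 2 it was 0.032 at 1500 bp, -0.11 at 3000 bp, 0.057 with q of at most 0.05 and -0.039 without replicate 1. In replicate 1 it was 0.053 without replicate 2. The share of broad regions with q of at most 0.05 was 100% among such peaks by construction, 27.03% with 2000 bp covered by both, 28.1% to 50% in 1 replicate alone and 11.9% without the 4 chromosomes. The share over a gene start was 80.8% to 81.1% in 1 replicate alone, where only 1 peak has to cover it. The CpG difference was -0.051 at 3000 bp, -0.062 with 2000 bp covered by both and -0.0036 to 0.045 in 1 replicate alone.

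The list counts were run under the same alternatives, chosen after seeing the data. T lineage factors with a broad region numbered 0 with q of at most 0.05, 3 with 2000 bp covered by both and 4 to 6 in 1 replicate alone. Ribosome and translation genes numbered 5 at 1500 bp, 0 at 3000 bp, 1 with a window of 2.5 kb, 0 with q of at most 0.05, 0 with 2000 bp covered by both and 1 to 2 in 1 replicate alone. Splicing genes numbered 8, 1, 0 and 2 at 1500 bp, 3000 bp, q of at most 0.05 and 2000 bp covered by both, and 2 to 4 in 1 replicate alone. Chromatin regulators numbered 8, 1, 2 and 0 under those settings, 1 without the 4 chromosomes and 1 to 3 in 1 replicate alone. The causes were not tested beyond what each setting itself removes.

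No paired analysis was possible because there was a single group and no test. Depth is unknown, so a gene without a peak is not shown to lack the mark.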
